A study of Mus musculus with 10 samples.

Results

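The neurotrophin ligands Bdnf and Ntf3, the Trk receptors Ntrk2 and Ntrk3, and the sortilin family receptors Sort1, Sorcs1, Sorcs2 and Sorcs3 were followed in the mouse hippocampal field CA3. These 8 genes were selected by symbol, and they account for 8 of the 18453 gene rows that each library holds. All 8 passed the filter on low counts and were among the 14393 genes tested. Gene-level read counts came from 10 RNA-seq libraries of C57BL/6J mice labelled male, although the injection protocol speaks of either sex. In 5 libraries the adeno-associated virus (AAV) infused on both sides of CA3 held an shRNA, a hairpin that triggers RNA interference, directed at the transcription factor Mef2c of neurons and microglia. The virus of the remaining 5 libraries held a scrambled control hairpin. The labels aim the knockdown at CA3 pyramidal neurons, but name neither the viral promoter nor the age of the mice, nor the time after injection. RNA came from CA3 tissue, so every cell type there contributes to each value. The labels do not say whether libraries came from separate animals, and p-values therefore rest on a spread that may be technical.

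Neurotrophins are secreted growth factors that bind Trk receptor tyrosine kinases and thereby support survival, dendrite growth and synaptic plasticity. In the hippocampus, Bdnf is made by excitatory neurons in an activity-dependent way and is stored at high levels in the mossy fibre pathway, whose axons end on CA3 pyramidal neurons. Sortilins are membrane receptors with a VPS10 domain, several of which bind proneurotrophins together with the p75 receptor (Ngfr) or carry neurotrophins and Trk receptors through the secretory and endosomal routes.

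Of the 8 genes, Ntrk3 and Sorcs3 fell in the Mef2c shRNA libraries, by 20.6% and 19.8%, and the other 6 did not pass the test (edgeR quasi-likelihood, Benjamini-Hochberg adjusted p under 0.05 over all genes tested). Both called genes were lower, 25.0% of the 8, where 12.3% of all tested genes were called in either direction, 4.66% higher and 7.61% lower. These same 2 genes were also the ones without overlap between groups, and 9.34% of all tested genes showed no overlap in either direction, 6.04% with Mef2c shRNA libraries lower. Log2 fold changes were below 0 in 7 of the 8, against 47.2% of all tested genes. The median log2 fold change of the 8 was -0.18, beside 0.02 over all tested genes, which were not matched to the 8 in length. Across the whole table, fold changes fell with transcript length. After the length and GC correction described below, 5 of the 8 were below 0, with the longest and with the median coding transcript alike. Their median was then -0.02 with the longest and -0.09 with the median coding transcript. The calls of Ntrk3 and Sorcs3 depended on how transcript length was treated, as described for each gene.

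**Figure D1:**
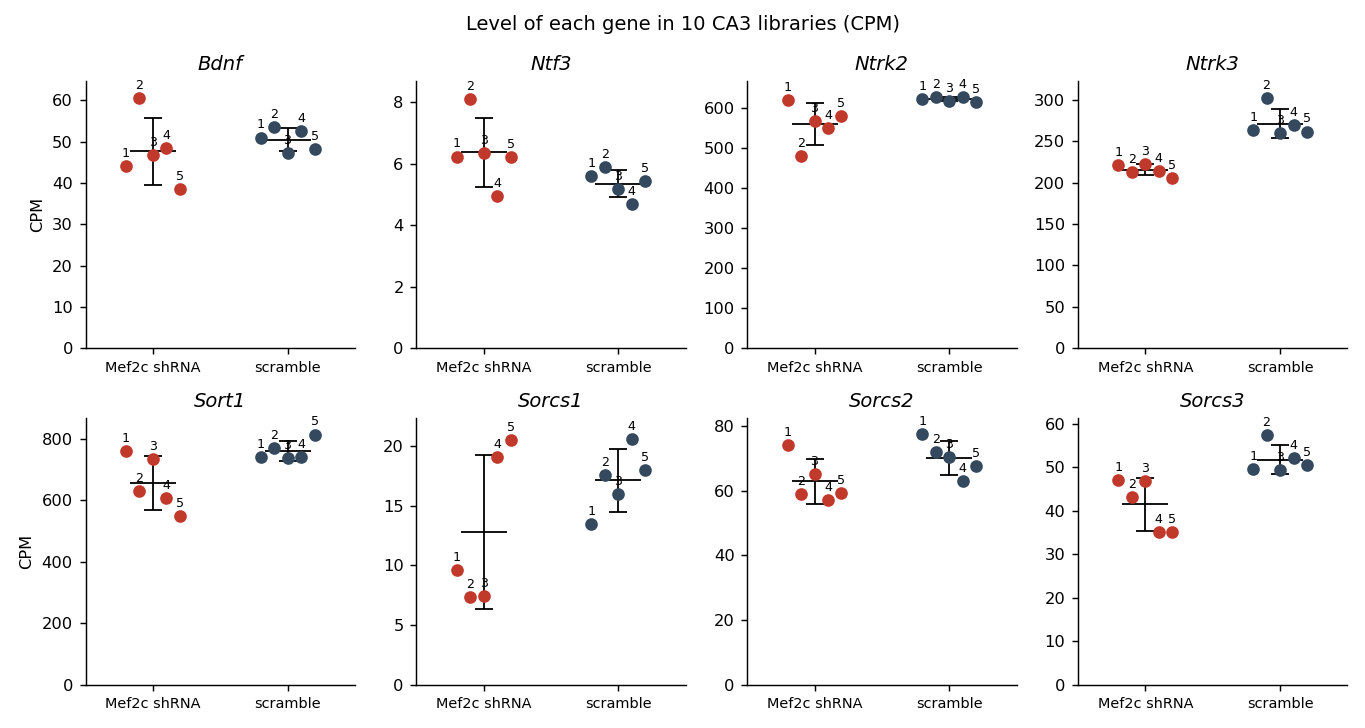
Counts scaled to library size (CPM) of the 8 genes in each library, with Mef2c shRNA libraries to the left of scramble libraries in each panel. Points are libraries with their replicate number, and lines give mean and SD (n = 5 each). Only in the panels of Ntrk3 and Sorcs3 do all Mef2c shRNA libraries lie below all scramble libraries.

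The promoters of Bdnf and Sorcs3 are shown because Bdnf is the activity-regulated ligand of the group and Sorcs3 is a called gene whose promoter was in the table used. Each is a RefSeq window on GRCm38.p6 of 250 bases before to 50 bases after a transcription start, written 5′ to 3′ on the strand of the gene. Capitals mark TCACGTCA, a variant of the binding site of the cyclic AMP response factor CREB, in Bdnf (chr2:109692186-109692485, plus strand). In Sorcs3 (chr19:48205775-48206074, plus strand) they mark ATTGG, the reverse complement of the CCAAT box.

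Bdnf: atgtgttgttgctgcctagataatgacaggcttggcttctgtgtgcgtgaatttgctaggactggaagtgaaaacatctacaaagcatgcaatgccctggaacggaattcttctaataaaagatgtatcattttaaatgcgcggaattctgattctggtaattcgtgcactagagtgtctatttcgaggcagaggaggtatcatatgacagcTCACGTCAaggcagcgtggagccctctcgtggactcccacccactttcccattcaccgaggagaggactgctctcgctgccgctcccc

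Sorcs3: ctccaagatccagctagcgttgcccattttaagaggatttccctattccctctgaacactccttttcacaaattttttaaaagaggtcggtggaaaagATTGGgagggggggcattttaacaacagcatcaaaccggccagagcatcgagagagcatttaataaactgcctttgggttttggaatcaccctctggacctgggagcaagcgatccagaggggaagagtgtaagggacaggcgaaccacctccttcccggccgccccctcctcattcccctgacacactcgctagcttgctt

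Windows were at hand for 5 of the 8 genes: 12 in all, 7 of them from Bdnf with its many first exons. Both strands of these and of all 32851 windows were searched for 4 motifs. TCACGTCA lay in the Bdnf window above, where it begins 38 bases before the start, and in no other of the 12. Among all windows 0.441% hold it. The palindromic CREB site TGACGTCA was found in 0 of the 12 windows, against 1.79% of all windows. The MEF2 consensus was found in 0 of the 12 and in 3.19% of all windows. CCAAT was found in 2 of the 12, 1 window of Ntf3 and the Sorcs3 window, and in 37.4% of all windows. These matches describe letters in short windows and say nothing of whether a factor binds there.

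The target of the hairpin, Mef2c, was read first as a check of the labels. Mef2c stood at 110.5, 130.8, 121.1, 163.2 and 286.1 CPM in Mef2c shRNA libraries 1 to 5, against 166.3, 197.7, 175.8, 312.0 and 175.2 CPM in scramble libraries 1 to 5. In 4 of the 5 Mef2c shRNA libraries it lay below all scramble libraries, while the library labelled Mef2c shRNA 5 stood above all scramble libraries except number 4. The difference did not pass the test (log2 fold change -0.34, SE 0.30, edgeR adjusted p = 0.489). It passed with the score of cortical markers as a covariate (-0.31, SE 0.08, edgeR adjusted p = 0.0178) and without Mef2c shRNA library 5 and scramble library 4 (-0.45, edgeR adjusted p = 0.0274). In the fit with the cortical score 2641 of 14393 tested genes were called, against 1766 in the main fit. Without scramble library 4 alone the log2 fold change of Mef2c was -0.14, and without Mef2c shRNA library 5 alone -0.64, and neither passed. Library totals ranged between 15669620 and 17798090 counts in the Mef2c shRNA group and between 14701928 and 15637076 in the scramble group. Every Mef2c shRNA library was therefore deeper, and whether depth bears on the results was not tested. Of 10 CA3 pyramidal neuron markers none was at 0 in any library and 0 were called. Their summed level ranged from 408.0 to 571.4 CPM in Mef2c shRNA libraries and from 469.1 to 507.4 CPM in scramble libraries.

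Bdnf, the ligand of TrkB, did not pass the test. Its level was 44.2, 60.5, 46.7, 48.4 and 38.6 CPM in Mef2c shRNA libraries 1 to 5, against 51.0, 53.5, 47.2, 52.5 and 48.3 CPM in scramble libraries 1 to 5. The Mef2c shRNA libraries held both the highest value, in library 2, and the lowest, in library 5, so the groups overlapped. Bdnf averaged 47.7 ± 8.06 CPM in Mef2c shRNA libraries and 50.5 ± 2.68 CPM in scramble libraries (SD, n = 5 each), a log2 fold change of -0.08 (SE 0.099, edgeR adjusted p = 0.618). The gene (ENSMUSG00000048482) lies on the plus strand at chr2:109674700-109727007 (GRCm38). GENCODE M21 lists 11 transcripts, which share the coding exon and differ mainly in their first exons, and the counts pool them. An annotated antisense gene overlaps exons of Bdnf, and without the strand of the counting its reads cannot be told apart from those of Bdnf.

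Ntf3 encodes neurotrophin-3, the preferred ligand of TrkC. Ntf3 stood at 6.23, 8.1, 6.34, 4.95 and 6.22 CPM in Mef2c shRNA libraries 1 to 5 and at 5.58, 5.88, 5.17, 4.69 and 5.43 CPM in scramble libraries 1 to 5. In 4 of the 5 Mef2c shRNA libraries it lay above all scramble libraries, the only one of the 8 genes with a log2 fold change above 0. That value was 0.25 (SE 0.15) and did not pass the test (edgeR adjusted p = 0.272). Only 70 to 146 reads per library were counted for Ntf3, so counting error weighs more on it than on most of the other genes. It lies at chr6:126101412-126166910 on the minus strand.

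Set against each other within a library, Bdnf was 7.58 ± 1.32 times Ntf3 in Mef2c shRNA libraries and 9.49 ± 0.954 times Ntf3 in scramble libraries (SD, n = 5 each). The log2 ratio was lower by 0.33 in the Mef2c shRNA libraries, given as -0.33 in shRNA minus scramble (exact two-sided permutation test, p = 0.0397). Adjusted over the 8 ratios tested between related genes it was 0.159, so the shift between the ligands did not pass.

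The Trk receptors each exist as full-length kinases and as truncated forms without the kinase domain, and astrocytes mainly carry the truncated form of TrkB. The counts per gene pool these forms. Ntrk2 encodes TrkB, the receptor of Bdnf. Ntrk2 stood at 621.3, 480.0, 568.2, 551.4 and 580.1 CPM in Mef2c shRNA libraries 1 to 5, against 622.5, 628.7, 618.4, 628.1 and 616.0 CPM in scramble libraries 1 to 5. The scramble libraries were close together, and Mef2c shRNA libraries 2 to 5 lay below all of them, while library 1 was within the scramble range. Ntrk2 averaged 560.2 ± 51.7 CPM in Mef2c shRNA libraries and 622.7 ± 5.67 CPM in scramble libraries (SD, n = 5 each). The log2 fold change of -0.15 (SE 0.066) did not pass (edgeR adjusted p = 0.135). Of the 10 fits that left out a single library it passed in 1, without Mef2c shRNA library 1 (-0.19, edgeR adjusted p = 0.0377). In that fit 3305 of 14515 tested genes were called, against 1766 of 14393 in the main fit. Ntrk2 lies at chr13:58806569-59133970 on the plus strand. Of the 10 astrocyte markers examined, 2 were called higher and 1 lower, 30.0% against 12.3% of all tested genes, and none was at 0. They summed to 4954.4 to 6258.7 CPM in Mef2c shRNA libraries and 5452.4 to 6090.9 CPM in scramble libraries, and their part in the Ntrk2 values was not tested.

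Ntrk3 encodes TrkC and had the smallest p of the 8 genes. Ntrk3 stood at 220.9, 213.0, 222.6, 214.1 and 206.1 CPM in Mef2c shRNA libraries 1 to 5, against 263.3, 302.6, 259.7, 269.3 and 261.8 CPM in scramble libraries 1 to 5. All Mef2c shRNA libraries lay below all scramble libraries, and the library labelled Mef2c shRNA 5, in which Mef2c was high, was the lowest. Ntrk3 averaged 215.3 ± 6.62 CPM in Mef2c shRNA libraries and 271.3 ± 17.8 CPM in scramble libraries (SD, n = 5 each). It fell by 0.33 on the log2 scale (log2 fold change -0.33, SE 0.058, edgeR adjusted p = 0.00393). In bulk tissue, fewer cells of a type and less RNA per cell cannot be told apart. The call held when any single library was left out, with edgeR adjusted p between 0.00182 and 0.015. It was lost without Mef2c shRNA libraries 2, 3 and 4 together (-0.35, edgeR adjusted p = 0.123) and with the score of microglia markers in the model (-0.35, edgeR adjusted p = 0.151). In both of these fits 0 genes of the whole table were called, so the loss is not particular to Ntrk3.

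The length assigned to Ntrk3 decided the sign of its corrected value. Fold changes followed transcript length across the whole table: genes whose longest transcript exceeds 16 kb had a median of -0.49 on the log2 scale, and 63.2% of them were called lower. The longest GENCODE M21 transcript of Ntrk3, at chr7:78175959-78738012 on the minus strand, is 19.7 kb, while the median of its 6 coding transcripts is 2.73 kb. When length and GC content were corrected for in each library by the longest transcript, Ntrk3 had 0.20 on the log2 scale (SE 0.058, edgeR adjusted p = 0.0902). With the median coding transcript, an alternative chosen after seeing the data, it was -0.34 (SE 0.052, edgeR adjusted p = 0.00393). The counts per gene do not show which Ntrk3 transcripts were present, so the data do not choose between these values. Of all genes tested, 1.65% were called with the longest and 4.3% with the median coding transcript. Of the 8 genes these were 0 and 1.

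**Figure D2:**
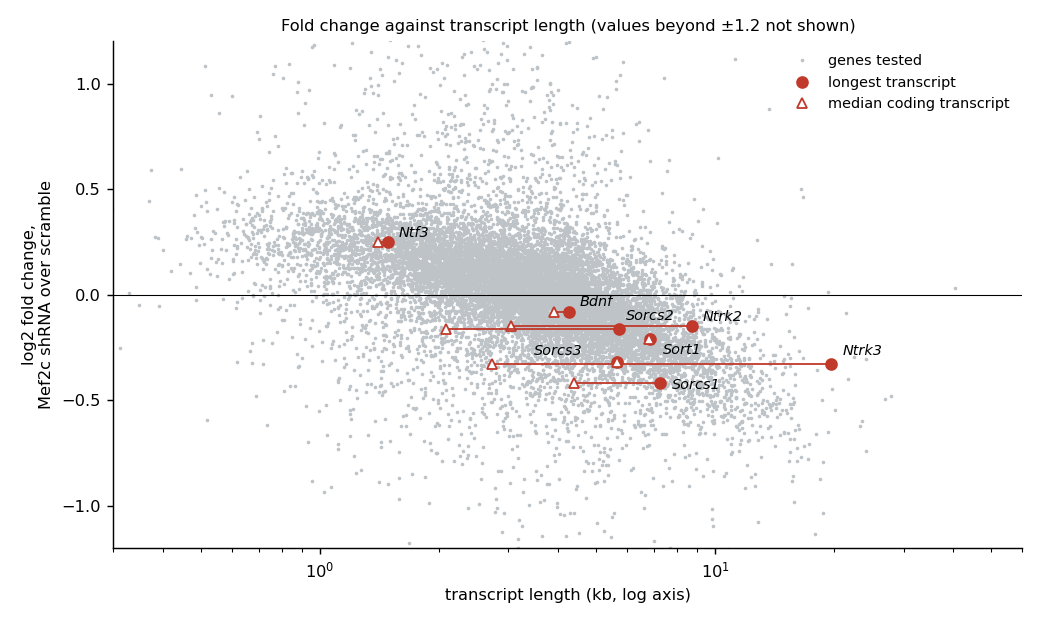
Log2 fold change, Mef2c shRNA over scramble, against transcript length in kb on a log axis, for all tested genes (grey) and the 8 genes (red circles, longest transcript; open triangles, median coding transcript, joined by a line). Fold changes fall with length, and Ntrk3 at -0.33 spans 2.73 kb to 19.7 kb, whereas Sort1 and Sorcs3 have nearly the same length by both measures.

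The choice of transcript moved the values of Ntrk2 and the ligands less. Ntrk2 had 0.16 (SE 0.058, edgeR adjusted p = 0.165) with its longest transcript of 8.74 kb and -0.08 (SE 0.06, edgeR adjusted p = 0.471) with its median coding transcript of 3.05 kb. Bdnf had -0.02 and 0.05, and Ntf3 0.12 and 0.23, in the same order on the log2 scale, and none passed. The slope of expression on log2 length averaged -0.078 ± 0.077 in Mef2c shRNA libraries and 0.078 ± 0.026 in scramble libraries (SD, n = 5 each, exact two-sided permutation p = 0.0159). Centring over the 10 libraries makes these means mirror each other. Mef2c shRNA library 1, whose Ntrk2 level resembled the scramble libraries, had a slope of 0.045, within the scramble range. Slopes of Mef2c shRNA libraries 2 to 5 were -0.134, -0.07, -0.08 and -0.149. Library 5, with the most negative slope, had more Ntrk2 (580.1 CPM) than library 3 (568.2 CPM). The part of the slope in the Ntrk2 values was not tested.

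Relative to Ntrk3, Ntrk2 was 2.6 ± 0.231-fold in Mef2c shRNA libraries and 2.3 ± 0.127-fold in scramble libraries (SD, n = 5 each). The difference in log2 ratio was 0.17 (exact two-sided permutation p = 0.0397), and it did not pass after adjustment over the 8 ratios (0.159). After the correction with longest transcripts it was -0.04.

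Sort1 encodes sortilin, the founding member of the family, which binds proneurotrophins and sorts proBDNF towards regulated secretion. Sort1 stood at 758.9, 630.0, 733.1, 607.1 and 549.4 CPM in Mef2c shRNA libraries 1 to 5, against 740.8, 771.0, 736.8, 739.3 and 814.0 CPM in scramble libraries 1 to 5. In Mef2c shRNA libraries 2 to 5 it lay below all scramble libraries, and library 1 was within the scramble range. Sort1 averaged 655.7 ± 88.0 CPM in Mef2c shRNA libraries and 760.4 ± 33.0 CPM in scramble libraries (SD, n = 5 each). The log2 fold change of -0.21 (SE 0.083) did not pass (edgeR adjusted p = 0.102). Of the 10 single omissions it passed in 1, without Mef2c shRNA library 1 (-0.27, edgeR adjusted p = 0.0232), where 3305 genes were called in all. Corrected for length and GC content it was -0.03 with the longest and 0.04 with the median coding transcript. Sort1 lies at chr3:108284082-108361511 on the plus strand, and an annotated antisense gene overlaps its exons.

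Sorcs1 takes part in the surface trafficking of synaptic receptors and adhesion proteins, and its fold change had the largest SE of the 8 genes. Sorcs1 stood at 9.63, 7.38, 7.46, 19.1 and 20.5 CPM in Mef2c shRNA libraries 1 to 5, against 13.5, 17.6, 16.0, 20.6 and 18.0 CPM in scramble libraries 1 to 5. Mef2c shRNA libraries 1 to 3 lay below all scramble libraries, whereas libraries 4 and 5 lay at the top of the scramble range. The mean was 12.8 ± 6.45 CPM in Mef2c shRNA libraries and 17.1 ± 2.65 CPM in scramble libraries (SD, n = 5 each). The log2 fold change of -0.42 was the most negative of the 8 genes, but its SE was 0.31 and it did not pass (edgeR adjusted p = 0.391). Sorcs1 lies at chr19:50143299-50678646 on the minus strand, and an annotated antisense gene overlaps its exons.

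Among Mef2c shRNA libraries, markers of neighbouring neurons were low where Sorcs1 was low. The score of 10 cortical layer neuron markers, the mean of their centred log2 CPM, was -0.27, -0.40, -0.27, 0.14 and 0.64 in Mef2c shRNA libraries 1 to 5, against -0.09, 0.07, -0.11, 0.39 and -0.11 in scramble libraries 1 to 5. The 3 Mef2c shRNA libraries low in Sorcs1 had the lowest scores, and the highest score of each group was in the library highest in Sorcs1. The summed level of these markers ranged from 500.2 to 701.6 CPM in Mef2c shRNA libraries and from 547.4 to 691.5 CPM in scramble libraries, none was at 0 in any library, and 0 of 10 were called. The score of 8 CA1 and subiculum markers was -0.22, -0.28 and -0.19 in Mef2c shRNA libraries 1 to 3, and 0.12 and 0.08 in libraries 4 and 5. In scramble libraries 1 to 5 it was 0.06, 0.15, 0.08, 0.05 and 0.14. There it did not follow Sorcs1, as scramble library 4 had the highest Sorcs1 and the lowest score. Those 8 markers summed to 645.3 to 798.1 CPM in Mef2c shRNA libraries and 769.9 to 840.5 CPM in scramble libraries, with none at 0 and 0 called. The score of 10 CA3 pyramidal neuron markers went the other way in Mef2c shRNA libraries. It was 0.21, 0.02 and 0.12 in libraries 1 to 3, and -0.34 and -0.17 in libraries 4 and 5. In scramble libraries it ranged from -0.05 to 0.09. With the cortical score as a covariate the log2 fold change of Sorcs1 was -0.45 (SE 0.15) and passed (edgeR adjusted p = 0.047). In that fit 2641 of 14393 tested genes were called, against 1766 in the main fit. Several of the cortical, CA1 and subiculum markers are also expressed in other hippocampal neurons. The part of these cell types in the Sorcs1 values was not tested.

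**Figure D3:**
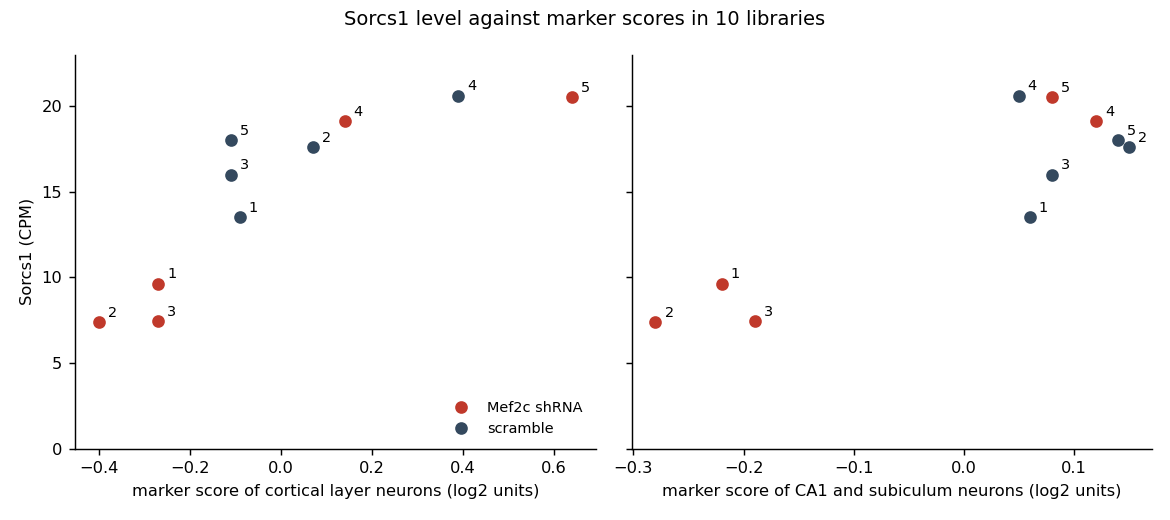
Sorcs1 level (CPM) against the marker score of cortical layer neurons (left) and of CA1 and subiculum neurons (right), in log2 units, for the 10 libraries with their replicate numbers (red, Mef2c shRNA; dark blue, scramble). Mef2c shRNA libraries 1, 2 and 3 lie apart at 7.38 to 9.63 CPM, and the other 7 libraries lie between 13.5 and 20.6 CPM.

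Sorcs2 binds proneurotrophins together with p75 and is needed for Bdnf-dependent plasticity in the mouse hippocampus. Sorcs2 stood at 74.1, 58.8, 65.2, 57.0 and 59.4 CPM in Mef2c shRNA libraries 1 to 5, against 77.5, 72.0, 70.3, 63.0 and 67.5 CPM in scramble libraries 1 to 5. The groups overlapped, with 3 of the 5 Mef2c shRNA libraries below all scramble libraries. The log2 fold change of -0.16 (SE 0.081) did not pass (edgeR adjusted p = 0.209). Of the 10 single omissions it passed in 1, without Mef2c shRNA library 1 (-0.22, edgeR adjusted p = 0.0397), where 3305 genes were called in all. Corrected values were -0.08 with its longest transcript of 5.71 kb and -0.26 (edgeR adjusted p = 0.0818) with its median coding transcript of 2.09 kb. Sorcs2 lies at chr5:36017180-36398139 on the minus strand.

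Sorcs3, a postsynaptic sortilin linked in mice to glutamate receptor trafficking and synaptic depression, was the other called gene. Sorcs3 stood at 47.1, 43.2, 46.9, 35.1 and 35.0 CPM in Mef2c shRNA libraries 1 to 5, against 49.6, 57.3, 49.3, 52.0 and 50.4 CPM in scramble libraries 1 to 5. All Mef2c shRNA libraries lay below all scramble libraries, libraries 1 and 3 by a small margin and libraries 4 and 5 by the widest. Libraries 4 and 5 also had the lowest CA3 pyramidal neuron marker scores, -0.34 and -0.17. Those scores were 0.02 to 0.21 in Mef2c shRNA libraries 1 to 3 and -0.05 to 0.09 in scramble libraries. Their part in the Sorcs3 values was not tested. Sorcs3 averaged 41.5 ± 6.04 CPM in Mef2c shRNA libraries and 51.7 ± 3.29 CPM in scramble libraries (SD, n = 5 each). It fell by 0.32 on the log2 scale (log2 fold change -0.32, SE 0.094, edgeR adjusted p = 0.0418).

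The call of Sorcs3 was close to the threshold. It was kept without Mef2c shRNA library 1 or 3 (edgeR adjusted p = 0.0145 and 0.0382) and lost without any 1 of the other 8 libraries (0.0541 to 0.113). The log2 fold change itself stayed between -0.37 and -0.26 in these fits. After the length and GC correction it was -0.19 with the longest transcript (edgeR adjusted p = 0.232) and -0.11 with the median coding transcript (0.46), both of 5.63 kb. Sorcs3 lies at chr19:48206025-48805505 on the plus strand, on the same chromosome as Sorcs1.

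**Figure D4:**
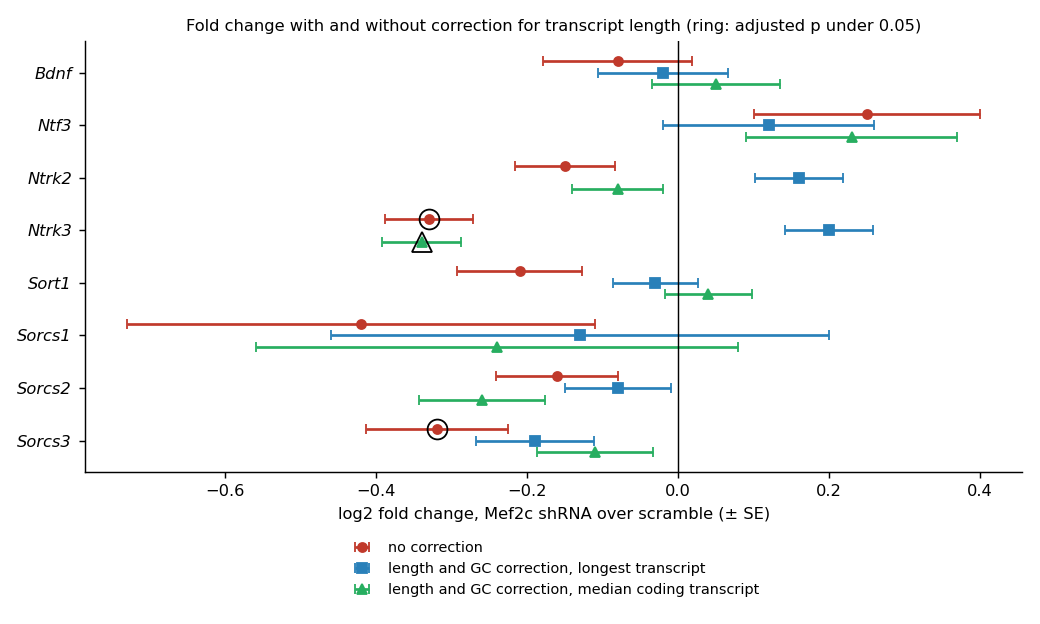
Log2 fold change, Mef2c shRNA over scramble, of the 8 genes with its SE, without correction and after the length and GC correction with the longest or the median coding transcript. Ntrk3 has -0.33, 0.20 and -0.34 in the 3 fits, and Sorcs3 has -0.32, -0.19 and -0.11.

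Within the sortilin family Sort1 supplied most of the transcript signal per kb of exon, 85.6% ± 1.12 in Mef2c shRNA libraries and 85.3% ± 0.653 in scramble libraries (SD, n = 5 each). These shares rest on the combined exon length of each gene and depend on it. Per kb of median coding transcript, Sort1 had 96.2 CPM per kb in Mef2c shRNA libraries and 111.6 in scramble libraries. Sorcs2 had 30.1 and 33.5 CPM per kb by that length, against 7.15 and 7.96 by combined exons, in the same groups. The Sort1 share is therefore smaller by median coding transcript, and its size was not computed. None of the 6 ratios between sortilins passed (exact two-sided permutation test, adjusted p of 0.254 to 0.595). The Sort1 to Sorcs3 log2 ratio differed by 0.11 (exact permutation p = 0.127), and the Sorcs2 to Sorcs3 log2 ratio by 0.17 (exact permutation p = 0.103). All 6 ratios overlapped between the groups.

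Levels were compared between genes as CPM per kb of all exons of a gene combined. Sort1 was the highest, at 86.6 ± 11.6 CPM per kb in Mef2c shRNA libraries and 100.5 ± 4.37 CPM per kb in scramble libraries (SD, n = 5 each). Ntrk2 followed with 29.0 ± 2.68 CPM per kb in Mef2c shRNA libraries and 32.3 ± 0.294 CPM per kb in scramble libraries. Then came Ntrk3, Bdnf, Sorcs2 and Sorcs3, with means between 5.82 and 7.67 CPM per kb in Mef2c shRNA libraries and between 7.25 and 8.99 CPM per kb in scramble libraries. Ntf3 had 3.72 ± 0.656 CPM per kb in Mef2c shRNA libraries and 3.12 ± 0.263 CPM per kb in scramble libraries, and Sorcs1 was the lowest, with 1.52 ± 0.764 and 2.03 ± 0.313 CPM per kb in the same groups. In the order of the scramble libraries, the ranges of neighbours overlapped for Bdnf with Sorcs2 and for Sorcs2 with Sorcs3 in both groups, and for Ntrk3 with Bdnf in Mef2c shRNA libraries alone. The order depends on the length used: per kb of median coding transcript, Ntrk2 stood above Sort1 in both groups. By that length Ntrk3 stood far above Bdnf. Ntrk3 had 79.0 ± 2.43 CPM per kb in Mef2c shRNA libraries and 99.5 ± 6.55 CPM per kb in scramble libraries. Sort1 had 96.2 and 111.6 CPM per kb, and Bdnf 12.2 and 12.9 CPM per kb, in the same groups.

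**Figure D5:**
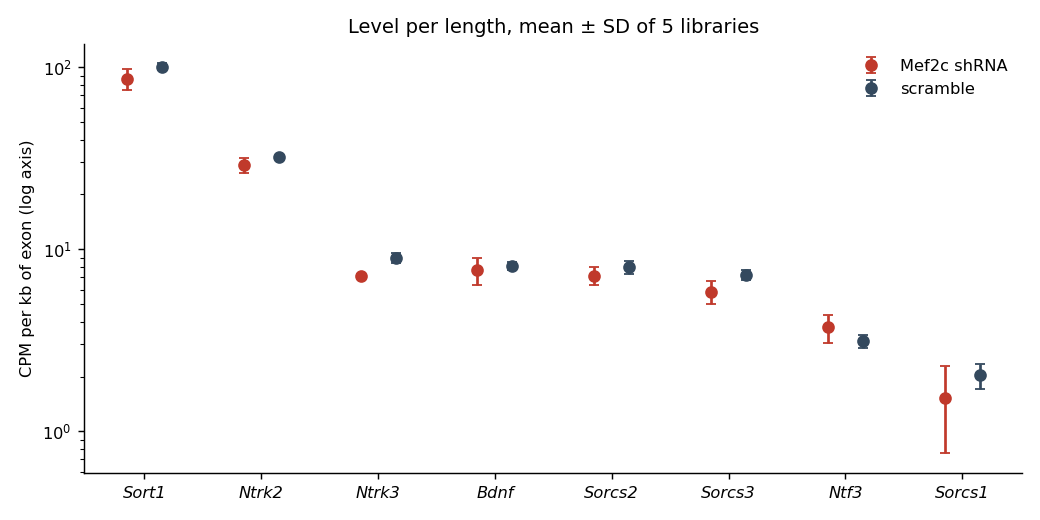
CPM per kb of combined exons (log axis) of the 8 genes, Mef2c shRNA beside scramble, drawn as the mean and SD of each group (n = 5 each). By this length Sort1 and Ntrk2 stand above the rest, and Sorcs1 is the lowest, at 1.52 CPM per kb in Mef2c shRNA libraries and 2.03 CPM per kb in scramble libraries.

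Within groups, the genes also varied from library to library. Over the 10 libraries, with each group centred, Pearson's r was 0.83 between Sort1 and Sorcs3, 0.67 between Ntrk3 and Sorcs3, -0.77 between Sorcs1 and Sorcs3 and -0.78 between Bdnf and Ntrk2. The last of these includes Mef2c shRNA library 2, which had the highest Bdnf and the lowest Ntrk2 of all libraries. These are descriptions among 28 pairs of genes that share libraries, depth and the length trend. The genes most like Ntrk3 among 13059 compared were Rab11fip2 (r 0.952), Aldh5a1 (0.917) and Gabrb1 (0.912). Those most like Sorcs3 were Wac (0.981), Arhgef6 (0.954) and Pigg (0.939).

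Of the other neurotrophin system genes described here, Ngfr and Ntf5 were low and Sorl1 was high. Ngfr, the p75 receptor, stood at 2.0 ± 1.47 CPM in Mef2c shRNA libraries and 2.36 ± 0.826 CPM in scramble libraries (SD, n = 5 each), and its log2 fold change of -0.24 was not past the threshold (edgeR adjusted p = 0.733). Ntf5, another TrkB ligand, was below the filter, with at most 13 reads in a library. Sorl1, a further VPS10 receptor that sorts the amyloid precursor protein, stood at 500.5, 417.1, 394.7, 359.0 and 278.7 CPM in Mef2c shRNA libraries 1 to 5, against 520.6, 529.9, 529.6, 535.1 and 560.9 CPM in scramble libraries 1 to 5. It fell, with no overlap (log2 fold change -0.46, SE 0.12, edgeR adjusted p = 0.0289). Its longest transcript is 10.7 kb, and after the correction the log2 fold change was -0.13 (edgeR adjusted p = 0.44).

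The genes around the receptors were read from 7 lists of 122 genes, of which 119 were tested and 24 called, 7 higher and 17 lower. That is 20.2% of those tested, against 12.3% of all genes, and their median log2 fold change of -0.02 lay beside 0.02 for all genes. With the length and GC correction, 3 were called with the longest transcript and 9 with the median coding transcript. Shc3 was the 1 gene called in all 3 fits.

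Among 24 Trk adaptors, 1 rose and 5 fell, 25.0% called against 12.3% of all tested genes. Shc3, the Shc adaptor of neurons that couples activated Trk receptors to Ras, stood at 33.0, 15.1, 15.7, 14.7 and 13.3 CPM in Mef2c shRNA libraries 1 to 5, against 37.6, 41.8, 37.3, 46.1 and 41.6 CPM in scramble libraries 1 to 5. The groups did not overlap, and Mef2c shRNA library 1 was close to the scramble libraries. Shc3 fell by 1.16 on the log2 scale (log2 fold change -1.16, SE 0.23, edgeR adjusted p = 0.0143), and the corrected values were -1.26 (SE 0.24, edgeR adjusted p = 0.0355) and -1.30 (edgeR adjusted p = 0.0229) with the longest and the median coding transcript. Its call was lost with the microglia score as a covariate (-0.81, edgeR adjusted p = 0.249), without Mef2c shRNA library 5 and scramble library 4 (-1.02, edgeR adjusted p = 0.0666) and without Mef2c shRNA libraries 2, 3 and 4 (-0.83, edgeR adjusted p = 0.226). It was also lost with a replicate block added to the longest-transcript correction (-1.33, edgeR adjusted p = 0.0552). With the microglia score, and without Mef2c shRNA libraries 2, 3 and 4, 0 genes of the whole table were called. Shc3 lies at chr13:51431041-51569419 on the minus strand, and its longest transcript is 3.16 kb. Kidins220, a scaffold bound to Trk receptors, the Ras exchange factor Sos1 and the insulin receptor substrate Irs1 fell by 0.35, 0.31 and 0.66 on the log2 scale. None of these 3 passed in either corrected fit.

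Among 28 downstream kinases and GTPases, 3 rose and 7 fell, 35.7% called against 12.3% of all tested genes. The median log2 fold change of this list was -0.06, beside 0.02 for all genes. The Raf kinase Braf fell by 0.27, the kinase Pdpk1, which activates Akt, by 0.32, the ERK-activated kinase Rps6ka3 by 0.33 and the lipid kinase subunit Pik3ca by 0.24 on the log2 scale. All 4 fell without overlap, and 0 genes of this list passed with the longest transcript. Pdpk1 (-0.33) and Rps6ka3 (-0.39) passed with the median coding transcript (edgeR adjusted p = 0.0286 and 0.0314). Of 11 tested proteases and protease inhibitors that act on proneurotrophins, 0 were called by edgeR. Closest to the threshold were the protease inhibitor Serpine2 (log2 fold change 0.21, edgeR adjusted p = 0.057) and Pcsk1, a convertase of the regulated secretory pathway (log2 fold change -0.71, edgeR adjusted p = 0.0672).

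Among 18 partners and effectors of p75, 3 rose and 1 fell, 22.2% called against 12.3% of all tested genes. The Nogo receptor Rtn4r, a coreceptor of p75, rose by 0.34 on the log2 scale and the GTPase regulator Arhgdia by 0.25. Trp53, which encodes p53, rose by 0.28, while the stress kinase Mapk8 fell by 0.23. The call of Trp53 was close to the threshold (edgeR adjusted p = 0.0454), and its groups overlapped. It was kept without Mef2c shRNA library 1 (0.0128) or scramble library 1 (0.0317). It was lost without any other single library (0.0525 to 0.121) and with a replicate block (0.0868). Of 16 trafficking partners of sortilins only Ap1g1, a subunit of the clathrin adaptor AP-1, was called (6.25%), and it fell by 0.32 on the log2 scale. None of these 5 passed with the longest transcript, and Mapk8 passed with the median coding transcript (-0.25, edgeR adjusted p = 0.0218). With the longest transcript the genes called were Rhoa (0.37, edgeR adjusted p = 0.0223) among the p75 partners and Rab11a (-0.21, edgeR adjusted p = 0.0399) among the trafficking genes. With the median coding transcript Rab11a (-0.22, edgeR adjusted p = 0.0199) was called and Rhoa (0.14, edgeR adjusted p = 0.27) was not. Both were named after their values were seen.

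Among 20 activity-induced genes, which like Bdnf respond to neuronal firing, 0 rose and 2 fell. The AP-1 factor Fosl2 fell by 0.52 and the synaptic scaffold Homer1 by 0.31 on the log2 scale. Neither passed after the correction with the longest or the median coding transcript. With a replicate block added to the longest-transcript correction, Fosl2 passed (-0.39, edgeR adjusted p = 0.034) and Homer1 did not (-0.10, edgeR adjusted p = 0.554). The median log2 fold change of the list was -0.21. Of 14 microglia markers 7 rose and 0 fell, and 1 was called in each corrected fit. Their summed level ranged from 481.5 to 989.2 CPM in Mef2c shRNA libraries and from 394.8 to 567.8 CPM in scramble libraries, and none was at 0. Mef2c shRNA libraries 1 and 5, at 549.1 and 481.5 CPM, were below scramble library 3. With the score of these markers as a covariate 0 of the 8 neurotrophin and sortilin genes were called, and 0 of all 14393 genes tested. In that fit Ntrk3 had -0.35 (SE 0.092) and Sorcs3 -0.39 (SE 0.14, edgeR adjusted p = 0.218) on the log2 scale, with larger SEs than in the main fit. The score itself differed between the groups, from -0.19 to 0.84 in Mef2c shRNA libraries and from -0.52 to 0.05 in scramble libraries. The fit therefore cannot cleanly separate the score from the group, and the part of microglia in these values was not tested.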

How the data were processed

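The deposited values are raw, unnormalized read counts per gene (whole numbers) in 5 Mef2c shRNA and 5 scramble libraries grouped by title. Per the labels' protocols, cDNA of polyadenylated RNA was sequenced as read pairs. Per the submitters' processing notes, HISAT2, featureCounts and the build mm10 were used; their versions, the annotation and the strandedness are not given in sources used here. Of 18453 rows, 18445 matched GENCODE M21 (GRCm38). No library duplicated another (chi-square per degree of freedom of at least 3.846 within groups).

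The main test was that of edgeR 4.0.16 under R 4.3.3 (filterByExpr, TMM, robust quasi-likelihood test, Benjamini-Hochberg over 14393 genes, threshold 0.05). CPM used TMM-scaled library sizes, and log2 CPM a prior count of 2. The correction fitted a spline in log2 length and a spline in GC content (natural splines, 5 degrees of freedom each) per library and used them as offsets. Ratios of gene pairs were tested over all 252 assignments. The code was checked on simulated counts. Spread between libraries exceeds counting error for all but the lowest genes (biological coefficient of variation 15.2%).

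Alternatives were DESeq2 1.42.0, limma 3.58.1 (voom), other scalings, filters and thresholds, a replicate block, marker score covariates and leaving out libraries. The genes and lists were chosen with earlier results of these data known. Text names Mef2c, the 8 genes, up to 4 called genes per list with the smallest p, and the 3 genes most correlated with each called gene of the 8 (mean of at least 2 CPM). Ngfr, Ntf5, Pcsk1, Serpine2, Rhoa and Rab11a were named in addition, after their values were seen. Some genes of the lists are not reported here. Of the 10 marker lists, those not described above had between 0 and 2 called genes.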

Additional observations from a re-analysis of the deposited data

Results flagged for a closer look

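Ntrk3 in scramble library 2, at 302.6 CPM, lay far from the other scramble libraries, which stood between 259.7 and 269.3 CPM. It was the 1 such value among the 16 groups of 5 libraries examined for the 8 genes, and chance gives about 1 in 20 groups. Without that library the log2 fold change of Ntrk3 was -0.29 and still passed (edgeR adjusted p = 0.0113).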

How the results depend on the processing

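Of the 8 genes Ntrk3 and Sorcs3 were called, and this count was 4 with limma-voom and with the cortical score as a covariate, 1 with a replicate block, with the median coding transcript, without Mef2c shRNA 5 and scramble 4, and at a threshold of 0.01, and 0 with the longest-transcript correction (with or without the block), with the microglia score and without Mef2c shRNA 2, 3 and 4. Leaving out single libraries gave 1 to 5. For all genes the count was 1766, against 3393 with limma-voom, 237 with the longest-transcript correction, 204 with block and correction, 619 with the median coding transcript, 1029 without Mef2c shRNA 5 and scramble 4, 3106 at 0.10 and 379 at 0.01, and 631 to 3305 without single libraries. It was 0 by edgeR with the microglia score (2490 at an unadjusted p under 0.05) and 0 without Mef2c shRNA 2, 3 and 4 (2590). Of the 119 pathway genes tested 24 were called, and this count was 14 with the block, 3 with the correction, 3 with block and correction, 9 with the median coding transcript, 13 without Mef2c shRNA 5 and scramble 4, and 0 with the microglia score, without Mef2c shRNA 2, 3 and 4 and at 0.01, and single omissions gave 4 to 30.

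Signs turned with the longest-transcript correction in Ntrk2 (0.16), Ntrk3 (0.20), Braf (0.09) and Pik3ca (0.09), and with the block added in Ntrk2 (0.16), Ntrk3 (0.20), Braf (0.09) and Pik3ca (0.08). They turned with the median coding transcript in Bdnf (0.05), Sort1 (0.04), Sos1 (0.04) and Pik3ca (0.05), and with the microglia score in Sorcs1 (0.06) and Mef2c (0.20). The log2 ratios of Ntrk2 to Ntrk3 (-0.04) and Sort1 to Sorcs2 (0.05) turned with the correction. The cause was not tested. Without single libraries the ratio differences were -0.43 to -0.27 for Bdnf to Ntf3, 0.14 to 0.22 for Ntrk2 to Ntrk3, 0.13 to 0.60 for Sort1 to Sorcs1 and -0.49 to -0.02 for Sorcs1 to Sorcs3.

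Replicate numbers were not shown to pair the libraries: same-numbered libraries correlated at 0.239, 0.185, 0.403, -0.114 and 0.079. The replicate block moved the count over all genes to 1313, and under it Sorcs3 kept its size but did not pass (-0.33, edgeR adjusted p = 0.0517), while Ntrk3 did (-0.33, edgeR adjusted p = 0.0164). Upper-quartile scaling raised the share of calls that were higher to 46.4%, against 38.0%. Depth limits Ntf3, Ngfr and, most of all, Ntf5.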
